A study of Rattus norvegicus with 12 samples.

Results

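The end state of a long fast in visceral fat was described by setting rats fasted until phase 3 against fed rats, gene by gene. All rats were male and of the Sprague-Dawley strain, and the tissue was the epididymal fat pad, the white adipose depot beside the epididymis. The comparison rests on 8 of the 12 arrays of the study, chosen by their group labels: 4 from fed rats and 4 from rats fasted until phase 3 (P3). The other 4 arrays came from rats fasted until phase 2 (P2) and serve here as a point between both states. Each rat gave 1 Affymetrix Rat Gene 1.0 ST array with no technical replicate, so errors are those between rats. The labels used here give neither the rats' age nor the length of the fast. Of 29215 probe sets, 15310 carried a single gene symbol, and the brightest probe set of each gene left 14506 genes. The extraction step of the labels names liver, whereas all other labels name white adipose tissue. Adipoq, the adipocyte hormone adiponectin, lay between 13.13 and 13.18 on the log2 scale in fed rats and between 11.08 and 12.25 in P3 rats, and the 18 hepatocyte genes averaged 5.13 to 5.21 in fed rats and 5.15 to 5.33 in P3 rats.

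A white adipocyte stores triglyceride when insulin is high and hydrolyses it when catecholamines are high and insulin is low. During a long fast the body first lives on fat and spares protein, the state called phase 2. In phase 3 the spent fat store gives way to rising protein breakdown and high glucocorticoid levels, and the animal must feed soon to survive.

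Over all genes, 6589 passed the test in P3 against fed rats (45.4%), 3066 of them higher (21.1%) and 3523 lower (24.3%), by limma with Benjamini-Hochberg adjustment at 0.05. At least a 2-fold difference was reached by 472 called genes that were higher and 907 that were lower, and at least an 8-fold difference by 20 and 38. The imbalance toward lower genes was therefore larger among big changes than among all calls. The values of the 4 P3 and the 4 fed rats did not overlap for 41.9% of genes. Phase 3 also differed from phase 2 in 4046 genes (27.9%), with 12.8% of genes higher and 15.1% lower, and 1491 genes were called higher and 1825 lower against both other groups.

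The P3 arrays had a lower median level over the named genes. The median was 6.985, 6.962, 6.995 and 6.959 in the 4 fed rats and 6.814, 6.826, 6.788 and 6.852 in the 4 P3 rats, with P2 arrays between them at a mean of 6.91. The groups did not overlap, and the means differed by -0.16. This lower median was known before and prompted the look at array levels, so it is given as a description with no test. The lower median was not a shift of all genes. The 10th percentile of the P3 arrays was higher by 0.10. The exact two-sided permutation test over all 70 divisions of 8 arrays gave p = 0.0286, the smallest value that it can give. After adjustment over the 11 array measures it was 0.0393. These measures include the median itself and describe the same arrays, so their tests are not independent of the known lower median. The 25th percentile was higher by 0.082 (exact permutation p = 0.229). The 75th and the 95th were lower by 0.079 and 0.054 (exact permutation p = 0.0286 each, 0.0393 after adjustment). The 90th was lower by 0.035 (exact permutation p = 0.314). The median of the 14506 single gene differences was 0.053 above 0.

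The change followed the level of a gene. When genes were divided into 10 equal bins by their mean level over the 12 arrays, the median change from fed to P3 was 0.12 and 0.13 in the second and the third bin, -0.11 and -0.095 in the sixth and the seventh, and -0.0040 and -0.023 in the brightest bins. Dim genes thus lay slightly higher, genes of middle level lower, and bright genes about level. Called genes split in the same way, with 16.9% higher and 8.41% lower in the third bin, 20.9% higher and 37.8% lower in the sixth, and 32.9% and 37.2% in the tenth. Phase 3 rat 3 carried much of the rise of dim genes, with a median of 0.34 in the third bin where the other P3 rats lay between 0.021 and 0.087. Its levels were also the least spread, with an SD over genes of 2.13 against 2.23 to 2.25 in the other P3 rats. Without it the difference of array medians was -0.14. The dip at middle levels was seen in all 4 rats, with medians of -0.051 to -0.18 in the sixth bin.

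**Figure D1:**
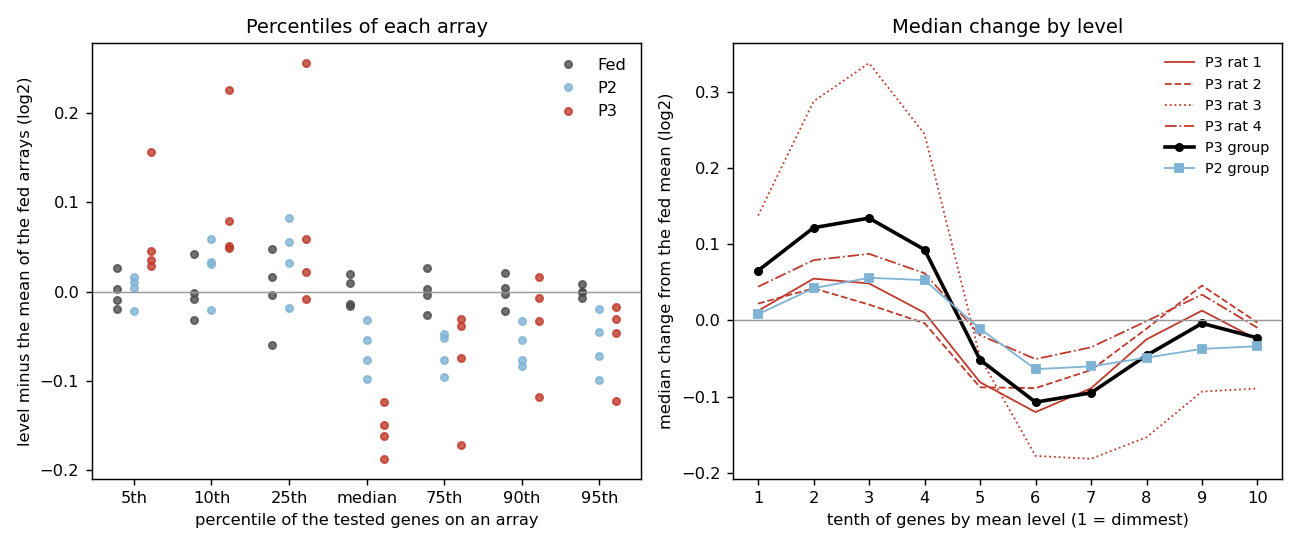
The left panel plots, for each array, percentiles of the 14506 gene levels minus the mean of the 4 fed arrays (log2), with 1 point per rat. The right panel plots the median change from the fed mean (log2) against the tenth of genes by mean level, for each P3 rat and for the P3 and P2 groups. The P3 medians lie at -0.12 to -0.19, whereas the 10th percentiles lie above 0, and rat 3 departs most from the other P3 rats.

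Probe sets without a gene symbol moved the other way. Their median was 5.27 in fed and 5.37 in P3 rats, and over all 29215 probe sets together the median was 6.05 and 6.06, a difference of 0.012 (exact permutation p = 0.629). The deposited values come from RMA, which normalises quantiles over arrays, so medians over all probe sets were held close together in advance. That test therefore cannot show whether the level changed. The rise of unnamed probe sets is likewise not separate from the fall of the named ones. The olfactory and vomeronasal receptor genes, 187 genes with no known role in fat that give a view of the dim end of the array, averaged 3.31 in fed and 3.39 in P3 rats. Their 95th percentile, taken here as a background level, was 4.90 and 5.16. By this measure 10896 genes (75.1%) stood above background in fed rats and 10544 (72.7%) in P3 rats, 431 only in fed and 79 only in P3 rats. In P2 rats the background level was 5.10 and 10574 genes (72.9%) stood above it, nearly as in P3 rats. The background level was set for each group on its own, so the count can fall without a change in these genes. P3 rats also differed more among themselves, with a median SD over genes of 0.167 against 0.112 in fed rats.

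Because these shifts bear on the direction of small changes, each list below was also counted under 6 scalings. The scalings were the deposited values, centring on the array median, on the upper quartile or on the receptor mean, quantile normalisation, and cyclic loess. Centring on the receptors, here and below, used the mean of the 53 olfactory receptor genes alone, without the vomeronasal ones. Centring on the median moved the median gene difference to 0.21 and the share of called genes that were higher from 46.5% to 69.6%, and centring on the receptors moved them to -0.084 and 28.3%. Called the same way under all 6 were 1829 genes that were higher (12.6%) and 2660 that were lower (18.3%), and 0 genes were called in opposite directions by any 2 scalings. Each change is a log2 difference followed by its model standard error (SE), and adjusted p-values are limma's with Benjamini-Hochberg adjustment.

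Some genes went from a dim level to a bright one. Sdr16c6, a short-chain dehydrogenase, measured 3.76, 3.72, 3.66 and 3.71 in fed rats and 11.13, 11.48, 11.43 and 10.98 in P3 rats (7.54 ± 0.539, adjusted p = 5.9e-08). Its fed values lie at background, so its fold is not exact. Trim63, the muscle-atrophy ubiquitin ligase MuRF1, measured 5.03 to 5.28 in fed and 11.32 to 11.95 in P3 rats, a rise of 87.4-fold (6.45 ± 0.163, adjusted p = 5.84e-12). Ass1, the argininosuccinate synthase of arginine synthesis, measured 4.87 to 5.32 and 10.74 to 12.27 (6.34 ± 0.244). None of these groups overlap, and Sdr16c6, Trim63 and Ass1 were also higher than in phase 2, by 5.32, 4.14 and 5.94. The P2 rats varied widely for Sdr16c6, from 4.40 to 7.94. The other large rises were Cyp2e1, which oxidises ethanol and acetone (6.53 ± 0.249), Pdk4, which switches off pyruvate dehydrogenase (5.11 ± 0.173), the lubricin gene Prg4 (4.59 ± 0.295), the metallothionein Mt1 (4.52 ± 0.249) and the matrix protein gene Thbs1 (4.37 ± 0.206). Of these, Cyp2e1 differed from phase 2 by only 0.18 (adjusted p = 0.648), so that most of its distance from fed rats was already present there. The fed means of Trim63, Ass1 and Cyp2e1 (5.16, 5.13 and 5.05) lie little above the fed background level of 4.90. Their folds are therefore not exact either.

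The largest falls included hormone, receptor and lipid synthesis genes of adipocytes. Lep, the satiety hormone leptin, measured 11.48, 11.30, 11.07 and 11.11 in fed rats and 4.28, 4.78, 5.33 and 4.99 in P3 rats (-6.40 ± 0.308, adjusted p = 1.57e-09). The P3 mean is below the background level. Sucnr1, the succinate receptor that restrains lipolysis, measured 9.75 to 10.21 and 4.28 to 4.81 (-5.39 ± 0.141) and also ended below background. Large falls were also measured for the imprinted genes Nnat (-5.90 ± 0.275) and Mest (-5.49 ± 0.215), the fatty acid synthase gene Fasn (-5.43 ± 0.162), the lipid droplet protein Pnpla3 (-5.38 ± 0.0865), the oxytocin receptor Oxtr (-5.21 ± 0.114) and the stearoyl-CoA desaturase Scd (-4.56 ± 0.217). Pnpla3 and Oxtr had no further fall after phase 2 that passed the test (-0.11 and 0.06), and Scd was 0.63 higher than in phase 2 (adjusted p = 0.0427).

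A second group changed between the fasting phases. Slc36a2, a proton-coupled amino acid transporter, differed by -0.50 between P2 and fed rats (adjusted p = 0.187) and then changed by -3.89 ± 0.258 from P2 to P3 rats. The same held for Lgals12, a galectin of lipid droplets (0.20 and then -3.09), and Ankef1 (0.69 and then -3.25). Arg2, the mitochondrial arginase, measured 4.40 to 4.71 in fed rats, at background, had a mean of 4.50 in P2 rats and measured 6.58 to 7.13 in P3 rats. Sectm1b, a secreted immune protein (3.41 ± 0.233), Rassf4 (2.74 ± 0.134) and Asl, the argininosuccinate lyase that follows Ass1 (1.41 ± 0.0907), likewise rose with a clear difference from phase 2 (3.23, 3.20 and 1.41). For 3 of the 197 named genes the changes from fed were called in opposite directions in P2 and P3, but the share over all genes was not counted. Acvr1c and Rassf4 were named for their large difference between the phases, so the count follows in part from that choice. Of all genes, 25.2% were called in P2 against fed rats, 9.66% higher and 15.5% lower. Pck1, the enzyme of glyceroneogenesis, changed by 1.03 in P2 and -1.46 in P3 rats, Acvr1c, an activin-type receptor of adipocytes, by 1.11 and -1.88, and Rassf4 by -0.46 and 2.74. P2 and P3 changes share the fed controls, and the direct differences of P3 from P2 (-2.49, -2.99 and 3.20) all passed the test.

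**Figure D2:**
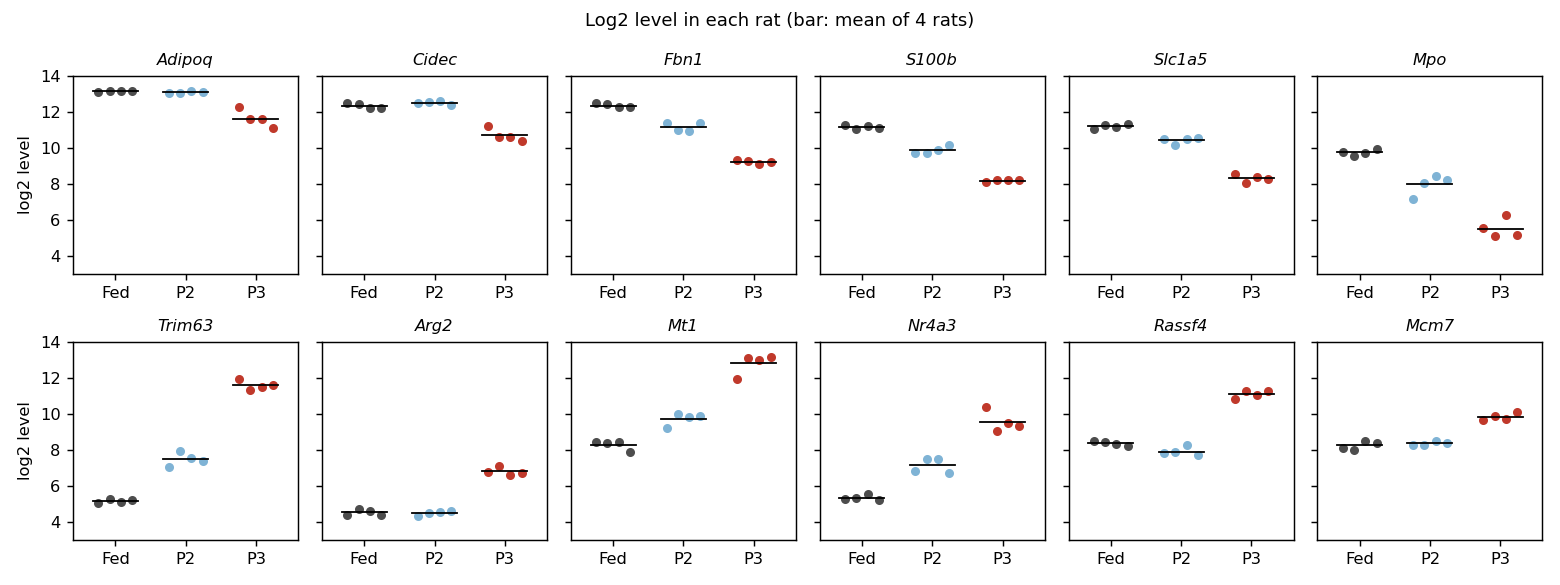
The log2 level of 12 genes in each of the 12 rats, with a bar for the mean of each group of 4. Adipoq and Cidec differ little between fed and P2 rats and are lower in P3 rats, Arg2 and Mcm7 are higher in P3 rats alone, and the fed and P3 values overlap for none of the genes drawn.

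Genes that define adipocytes were lower in P3 rats. Of 17 measured markers, 14 fell and 1 rose, with a median of -1.52, where 24.3% of all genes fell and the median over all genes was 0.053. The list averaged 11.52 to 11.59 in the fed rats and 9.65 to 10.51 in the P3 rats. P3 rat 1 stood nearest to the fed rats, at 10.51 against 9.65 to 9.92 in the others, and had the highest P3 value for 13 of 17 markers (76.5%, against 20.1% of all genes). In phase 2 its median was -0.060 from fed, and 15 members were lower in P3 than in P2 rats, where 15.1% of all genes were lower. Cidec, which fuses lipid droplets, measured 12.20 to 12.47 in fed and 10.40 to 11.24 in P3 rats (-1.63 ± 0.146), and Aoc3, an amine oxidase of the adipocyte surface, fell by 1.94 ± 0.14. Adipoq fell by 1.52 ± 0.169 and Pparg, the master transcription factor of adipocytes, by 0.80 ± 0.121. Cd36, the fatty acid transporter named after its value was seen, went the other way (0.31 ± 0.0781, adjusted p = 0.00445), a call that did not hold with centring on the receptor mean (adjusted p = 0.114, and 0.00017 to 0.114 over all alternatives). In bulk tissue fewer adipocytes and less RNA per adipocyte cannot be told apart. For Pck1, P3 rat 1 (11.25) overlapped the fed rats (11.24 to 12.13).

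Adipokines were mostly lower: 13 of 20 fell and 3 rose, with a median of -0.97. Rbp4, the retinol carrier, measured 10.94 to 11.07 in fed and 7.29 to 8.33 in P3 rats (-3.36 ± 0.168), and Ccdc80 fell by 1.64 ± 0.0878. Nampt, the NAD-salvage enzyme also called visfatin, measured 8.98 to 9.08 and 11.14 to 11.48 (2.29 ± 0.0942). The complement protease Cfd (adipsin), which the mature adipocyte secretes, fell by 1.63 ± 0.243. Receptors that control lipolysis also fell more often than they rose (9 and 3 of 16). They included Npr3, which clears natriuretic peptides (-3.08 ± 0.151), and Ghr, the growth hormone receptor (-2.73 ± 0.148). The insulin receptor Insr rose by 1.55 ± 0.0988, with P3 rats at 11.19 to 11.50. G0s2, the inhibitor of adipose triglyceride lipase, fell by 3.62 ± 0.135, 2.77 of it after phase 2, while Plin2, a coat protein of lipid droplets, rose by 1.03 ± 0.103.

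Insulin signalling members went both ways, 8 higher and 7 lower of 20, and 6 and 7 with centring on the receptors, so that no direction held. Akt2, the kinase that carries the insulin signal to glucose uptake, fell by 1.58 ± 0.0968 and the glucose transporter Slc2a4 fell from 9.10 to 9.72 in fed rats to 7.91 to 8.38 in P3 rats, although it was 0.48 higher than in phase 2 (adjusted p = 0.0322). Pik3ip1, an inhibitor of phosphoinositide 3-kinase, rose by 2.04 ± 0.0872 and the ubiquitin ligase Cblb by 1.53 ± 0.127. Among 31 adipogenic and lipid transcription factors, 9 were higher and 8 lower, and 7 and 12 with centring on the receptors. Nr4a3, an orphan nuclear receptor, measured 5.22 to 5.56 in fed and 9.03 to 10.39 in P3 rats, 18.6-fold higher (4.22 ± 0.253). Klf15 (2.39 ± 0.153) and Cebpd (1.50 ± 0.111) rose, and Zfp423, a factor of preadipocyte commitment, fell by 1.29 ± 0.113. Of 8 measured genes of caveolae, the membrane pits that crowd the adipocyte surface, 6 fell and 0 rose. They included Ehd2 (-1.55 ± 0.0825), the coat gene Cavin1 (-1.17 ± 0.101), Cav2 (-0.93) and Cav1 (-0.62).

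Fatty acid uptake changed in its members rather than in sum (6 higher and 4 lower of 15, and 4 and 5 with centring on the receptors). Acsl1, the main acyl-CoA synthetase of adipocytes, fell by 1.75 ± 0.144, while Acsl4, which prefers arachidonate, measured 8.55 to 8.84 in fed and 10.92 to 11.35 in P3 rats and rose by 2.41 ± 0.107. Slc27a2, a transport protein that activates very long fatty acids, rose by 3.74 ± 0.394 and had already reached this level in phase 2. In de novo lipogenesis the exception among 14 falls was Acacb, the acetyl-CoA carboxylase that restrains fatty acid oxidation. Acacb measured 5.62 to 6.14 in fed and 9.54 to 10.51 in P3 rats (4.10 ± 0.17, adjusted p = 4.67e-10). Peroxisomal genes were split, with Phyh, of phytanic acid oxidation, up by 1.01 ± 0.1 and catalase (Cat) down by 1.29 ± 0.117.

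Glycolysis genes were lower: 14 of 19 members fell and 3 rose, with a median of -0.86, and all 17 calls held under the 6 scalings. Ldha, lactate dehydrogenase, measured 12.89 to 13.12 in fed and 10.74 to 10.87 in P3 rats (-2.19 ± 0.0865). Tpi1 fell by 1.62 ± 0.123, the phosphofructokinase Pfkm by 1.15 ± 0.0883 and the regulator Pfkfb1 by 1.70 ± 0.145. Pfkfb3, which makes the strongest activator of phosphofructokinase, rose by 1.80 ± 0.188 and the aldolase Aldoc by 1.37 ± 0.185 (both named after their values were seen). The pentose phosphate and NADPH list fell in 6 of 8 members, including the malic enzyme Me1 (-3.96 ± 0.193) and the transketolase Tkt (-2.25 ± 0.0971). Its one rise was H6pd, which makes NADPH inside the endoplasmic reticulum and feeds glucocorticoid regeneration (1.48 ± 0.243, named after its value was seen). Of 15 glycogen genes, 11 fell, among them Pygl, the glycogen phosphorylase (10.19 to 10.97 in fed and 6.01 to 7.64 in P3 rats). Gys2, a glycogen synthase, rose by 2.14 ± 0.439 with P3 rats spread from 8.52 to 11.07, and it is also named after its value was seen.

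Genes of the respiratory chain, the mitochondrial ribosome and the citric acid cycle were mostly lower. None of the 63 measured genes of the respiratory chain and ATP synthase rose and 54 fell, 52 of them under all 6 scalings, with a median of -0.86. In phase 2 the median from fed was -0.44, and 36 members were lower in P3 than in P2 rats. The complex I subunit gene Ndufa12 measured 9.94 to 10.16 in fed and 8.25 to 8.69 in P3 rats (-1.49 ± 0.0956), and Ndufs8 fell by 1.37 ± 0.0883. Of 68 mitochondrial ribosomal proteins, which translate the mitochondrial genome, 43 fell and 3 rose, led by Mrps7 (-1.72 ± 0.0754) and Mrpl42 (-1.35 ± 0.0917). In the citric acid cycle 14 of 17 fell, among them the malate dehydrogenase Mdh2 (-1.12 ± 0.0834) and the citrate synthase Cs (-1.12 ± 0.109), whose second probe set changed by only -0.04. Suclg2, a subunit of succinyl-CoA ligase named after its value was seen, rose by 0.34 ± 0.0919, a call that was lost with centring on the receptor mean (adjusted p = 0.104, and 0.000453 to 0.104 over all alternatives). Of 20 genes of mitochondrial fatty acid oxidation, 8 were lower and 3 higher, and 5 and 5 with median centring. Of 37 mitochondrial solute carriers, 14 were lower and 12 higher, and 10 and 18 with median centring. Around pyruvate, Pc, the carboxylase that fills the cycle, fell by 3.12 ± 0.171, and the dehydrogenase subunits Dlat and Pdhb fell by 1.79 ± 0.0941 and 1.50 ± 0.126. Adipocyte markers fell in the same rats, and their part in these changes was not tested. The thermogenic gene Ucp1 measured 4.02 to 4.24 and 4.13 to 4.54, below the background level in both groups.

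Genes tied to tissue wasting were higher. Of 20 FOXO and atrophy-associated genes, 15 rose and none fell, with a median of 1.02, and 14 members of the list were higher than in phase 2. Beside Trim63, the ubiquitin ligase Fbxo32 (atrogin-1) measured 7.50 to 7.67 in fed and 9.48 to 9.84 in P3 rats (2.14 ± 0.12), Fbxo30 rose by 1.53 ± 0.0765 and Igfbp3, a carrier of insulin-like growth factors, by 2.73 ± 0.161. The bases before the Trim63 start site are shown because Trim63 had the largest rise of any named ubiquitin ligase and FOXO factors, which are known to regulate it, bind the motif GTAAACA. The stretch is chr5:151816986-151817235 on the plus strand (RefSeq, build GRCr8), written 5′ to 3′ along the gene, with the match to GTAAACA on the other strand in capitals at position -205 from the start site.
Trim63: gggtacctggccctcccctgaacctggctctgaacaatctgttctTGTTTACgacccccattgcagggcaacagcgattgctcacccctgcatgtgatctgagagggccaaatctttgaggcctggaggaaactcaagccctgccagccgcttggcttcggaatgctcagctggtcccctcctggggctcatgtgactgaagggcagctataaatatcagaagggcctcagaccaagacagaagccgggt
The motif, searched on both strands in the 250 bases before the start, was found in 1 of 13 list members with a sequence and in 2.57% of 11951 genes.

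Glucocorticoid-induced genes showed the largest median rise of all lists, 1.89: 19 of 24 rose and 1 fell, and 17 were higher than in phase 2. Klf15, Cebpd and Cdkn1a stand on both this and the atrophy list. Fkbp5, the co-chaperone that is the standard marker of glucocorticoid action, measured 9.48, 9.20, 7.63 and 8.17 in fed rats and 11.17, 11.18, 10.92 and 11.20 in P3 rats (2.50 ± 0.333, adjusted p = 2.44e-05). The fed rats varied far more than the P3 rats here. Gadd45b rose by 2.93 ± 0.127 and Ddit4, an inhibitor of the growth kinase mTOR, by 2.81 ± 0.296, with 2.22 of it after phase 2. The receptor gene itself, Nr3c1, was the 1 fall (-0.58 ± 0.089, named after its value was seen).

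Mt1 and Mt2A, which encode zinc-binding metallothioneins and respond to zinc and to glucocorticoids, were the strongest members of that list. Mt1 measured 8.45, 8.40, 8.42 and 7.89 in fed rats and 11.93, 13.12, 13.02 and 13.17 in P3 rats, and Mt2A measured 8.82 to 9.04 and 11.55 to 12.97 (3.63 ± 0.271). In both genes P3 rat 1 was the lowest of the fasted rats and still far above the fed ones. Their upstream bases are shown because these neighbours rose together and metal response elements (MRE, here TGCGCNC or TGCACNC) are the known zinc sites of this family. Mt1 lies at chr19:10832976-10833225 and Mt2A at chr19:10838709-10838958, both on the minus strand (RefSeq, GRCr8), and capitals mark the matches on either strand.
Mt1: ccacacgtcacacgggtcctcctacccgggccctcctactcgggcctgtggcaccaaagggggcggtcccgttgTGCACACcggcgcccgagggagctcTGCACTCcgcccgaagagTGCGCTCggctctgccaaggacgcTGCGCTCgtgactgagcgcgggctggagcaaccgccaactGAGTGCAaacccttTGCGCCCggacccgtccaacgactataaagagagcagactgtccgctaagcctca
Mt2A: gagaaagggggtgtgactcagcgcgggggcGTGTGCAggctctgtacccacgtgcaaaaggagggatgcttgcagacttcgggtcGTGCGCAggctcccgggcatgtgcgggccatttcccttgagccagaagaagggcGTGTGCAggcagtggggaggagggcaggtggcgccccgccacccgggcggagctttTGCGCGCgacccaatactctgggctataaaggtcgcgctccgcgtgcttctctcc
Mt1 holds 6 matches and Mt2A 4. At least 1 match was found in 13 of 20 metallothionein and zinc transporter genes (65.0%) and in 27.0% of all genes. The other members of that list did not follow the metallothioneins, since 11 of 22 fell and 7 rose (9 and 10 with median centring), for example the Golgi zinc transporter Slc39a13 (-1.55 ± 0.0882).

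Self-digestion genes were divided by route. Of 31 autophagy and mitophagy genes, 18 rose and 3 fell, with a median of 0.48. Gabarapl1, a membrane tag of autophagosomes, measured 8.84 to 8.96 in fed and 10.92 to 11.43 in P3 rats (2.29 ± 0.0988). The mitophagy receptor Bnip3 rose by 1.72 ± 0.104, Map1lc3b by 1.30 ± 0.078 and the starting kinase Ulk1 by 1.20 ± 0.0829. Lysosomal hydrolases and the proton pump went both ways, 13 higher and 18 lower of 46, and 18 and 15 with median centring. The protease Ctsl rose by 1.51 ± 0.099 and the hydrolases Manba and Smpd1 fell by 1.28 ± 0.0884 and 1.06 ± 0.08. Proteasome subunits were also split against fed rats, 7 higher and 15 lower of 42, and 13 and 10 with median centring, but 14 were higher and 4 lower than in phase 2. Psma6, a core subunit, rose by 0.86 ± 0.105, all of it after phase 2 (P2 minus fed -0.03). The immune forms fell, with Psmb8 at -1.28 ± 0.141 and the activator Psme2 at -1.10 ± 0.0821.

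Amino acid handling changed in single steps. Of 48 catabolic genes, 14 rose and 16 fell, and 19 and 15 with median centring. The arginine genes Ass1, Asl and Arg2 rose, whereas Gpt, the alanine aminotransferase, measured 10.26 to 10.53 in fed and 6.76 to 7.77 in P3 rats (-3.15 ± 0.162). Among 28 transporters, 11 rose and 6 fell. Slc7a8 (2.27 ± 0.104) and its heavy chain Slc3a2 (1.35 ± 0.079), which together exchange neutral amino acids, rose, and the glutamine carrier Slc1a5 fell from 11.03 to 11.33 in fed rats to 8.04 to 8.54 in P3 rats (-2.89 ± 0.118). The ATF4 and amino acid response list had 15 rises and 9 falls among 29. Ppp1r15a, which restarts translation after stress, rose by 2.05 ± 0.131, and Aldh1l2, a mitochondrial folate enzyme, fell by 2.68 ± 0.127 to background. Chaperones of the endoplasmic reticulum lumen fell in 18 of 22 cases, 12 of them under all 6 scalings. Among the falls were Calr (-1.46 ± 0.0731) and Pdia6 (-1.52 ± 0.114), while the stress-induced co-chaperone Dnajb9 rose by 1.31 ± 0.112. The median of these chaperones was already -0.57 in phase 2 against fed rats. In P3 against P2 rats 6 were lower and 1 higher.

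Energy sensors showed no common direction (8 higher and 6 lower of 23, and 6 and 8 with centring on the receptors). The mTOR inhibitor Sesn1 rose by 1.67 ± 0.107, folliculin (Flcn) by 1.22 ± 0.0908 and the AMP-activated kinase subunit Prkaa1 by 1.17 ± 0.0796, most of it already in phase 2 (0.94).

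Most lists of genes that make RNA, ribosomes and proteins had more rises than falls as deposited, with small changes, but not all kept this direction with centring on the receptors. Of 28 nucleolar genes, 17 rose and 4 fell (median 0.43), and 18 were higher and 0 lower than in phase 2, where 12.8% of all genes were higher. Wdr43 and Utp18, both of the small-subunit processome, rose by 0.93 ± 0.0696 and 1.09 ± 0.114, and Gnl3 (nucleostemin) by 0.95 ± 0.0966, although its second probe set gave 0.25 and the mean of both 0.60, with P2 changes of 0.15, 0.11 and 0.13 that did not pass the test. Cytosolic ribosomal proteins were higher in 31 of 71 cases and lower in 2, but only 8 were higher under all 6 scalings, and 0 were higher than in phase 2. Rplp2 rose by 0.50 ± 0.0726 (0.37 to 0.66 over all alternatives), and its other probe sets gave 0.50 and 0.49. Of 54 splicing genes, 27 rose and 4 fell (17 and 5 with centring on the receptors), among them U2af1 (1.22 ± 0.125) and Sf3b1 (0.87 ± 0.0823), both of branch and splice site recognition. Translation factors had 16 rises and 3 falls of 36, but 11 and 10 with centring on the receptors, where their median was -0.022. They included Eif4b (1.12 ± 0.0722) and Eif4h (0.83 ± 0.0808). RNA polymerase subunits and general transcription factors had 14 rises and 8 falls of 38, but 4 and 12 with centring on the receptors. Aminoacyl-tRNA synthetases, 4 higher and 5 lower of 21 against fed rats (9 and 2 with median centring), were higher than in phase 2 in 12 cases and lower in 0. Wars1 was lower by 0.84 than in fed rats and the scaffold Aimp1 higher by 0.70.

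Cell division genes were low. Of 46 genes of S phase and mitosis, 39 fell and 2 rose, with a median of -1.27 against -1.01 in phase 2. Top2a, the topoisomerase of dividing cells named outside the rule for its promoter, measured 8.11, 7.76, 9.08 and 8.89 in fed rats and 4.57, 5.37, 5.63 and 5.11 in P3 rats (-3.29 ± 0.279). Ect2, of cytokinesis, fell by 2.31 ± 0.179, Bub1, of the spindle checkpoint, by 1.87 ± 0.14, and both ended below background. The cyclin Ccnd1 fell by 2.74 ± 0.131. The upstream bases of Top2a are shown as an example of the list, whose genes are known for CCAAT boxes and for the cell cycle homology region (TTTGAA). They lie at chr10:84473094-84473343 on the minus strand (RefSeq, GRCr8), with matches on either strand in capitals.
Top2a: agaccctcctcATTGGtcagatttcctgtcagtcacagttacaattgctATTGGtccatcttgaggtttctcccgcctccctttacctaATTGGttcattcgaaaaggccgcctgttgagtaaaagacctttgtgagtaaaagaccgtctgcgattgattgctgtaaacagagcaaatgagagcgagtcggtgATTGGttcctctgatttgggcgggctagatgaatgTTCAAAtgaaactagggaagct
A CCAAT box was found in 26 of 35 mitosis and S phase genes with a sequence (74.3%) and in 35.6% of all genes, and the cell cycle homology region in 9 of 35 and in 13.9% of all. One replication gene went against the list: Mcm7, a subunit of the replicative helicase, measured 8.01 to 8.47 in fed and 9.67 to 10.10 in P3 rats (1.59 ± 0.119), with a P2 mean of 8.36.

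Growth arrest and growth factor genes changed beside this. Of 25 p53 targets and arrest genes, 14 rose and 2 fell. Tp53inp1 measured 8.67 to 8.93 and 11.13 to 11.54 (2.59 ± 0.117), and Cdkn1a, the cell cycle inhibitor p21, rose by 1.31 ± 0.31 (adjusted p = 0.00305). Phlda3, an inhibitor of Akt signalling, fell by 2.24 ± 0.133. Among 17 imprinted growth genes 7 fell and 3 rose, and 7 and 7 with median centring: beside Nnat and Mest, the non-coding H19 fell by 2.25 ± 0.155 and Igf2r by 1.41 ± 0.1. In the insulin-like growth factor system Igf1 measured 12.80 to 12.87 in fed and 11.04 to 11.39 in P3 rats (-1.65 ± 0.0911), Igfbp2 fell by 2.66 ± 0.106 and Igfbp4 by 1.75 ± 0.0821, in contrast to Igfbp3.

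Most collagen chains and genes that process collagen were lower. Of 16 collagen chains, 11 fell and 0 rose (median -1.25), and of 33 genes that process collagen or build elastic fibres 28 fell and 1 rose (median -1.16). Col3a1 measured 12.82 to 12.95 in fed and 9.44 to 10.46 in P3 rats (-2.93 ± 0.167), Col1a1 fell by 2.61 ± 0.202 and Col5a3 by 3.00 ± 0.12. Fibrillin 1 (Fbn1), whose precursor also yields the hormone asprosin, measured 12.25 to 12.47 in fed and 9.10 to 9.33 in P3 rats (-3.12 ± 0.111). The cross-linking enzyme Loxl2 fell by 3.50 ± 0.135 and the collagen chaperone Serpinh1 by 2.50 ± 0.0829. Ltbp1, a binding protein of transforming growth factor beta, was the 1 rise (0.75 ± 0.127, named after its value was seen). P3 rat 3 had the lowest value of the P3 rats for 11 of 16 collagen chains (68.8%, against 30.8% of all genes). This was not particular to collagen, since the same held for 44 of 71 cytosolic ribosomal proteins (62.0%). Among matrix proteases 9 fell and 7 rose of 28 (7 and 9 with median centring), with Mmp15 at -2.64 ± 0.138 and Mmp11 at 1.31 ± 0.119. Of 32 Wnt genes, 11 fell and 4 rose (median -0.028), 10 and 7 with median centring, and 9 and 3 without P3 rats 2 and 3. They included Wnt5a (-2.34 ± 0.107) and the antagonists Sfrp4 and Sfrp2 (-2.22 ± 0.187 and -2.01 ± 0.21).

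Markers of fibroblasts and progenitors fell with the matrix, 17 of 20, with the lowest median of any cell type list (-1.91). The list averaged 10.61 to 10.75 in fed and 8.88 to 9.42 in P3 rats, and several matrix genes stand on both lists. Thy1 fell by 2.38 ± 0.13 and Dpp4, of early progenitors, by 2.13 ± 0.123, while Dcn, the proteoglycan decorin, rose by 0.42 ± 0.0912 (0.29 to 0.60 over all alternatives, named after its value was seen). Their part in the matrix changes was not tested. Mesothelial markers fell in 7 of 11 cases, among them Msln (-1.97 ± 0.143) and the keratins Krt19 and Krt8 (-1.82 ± 0.215 and -1.47 ± 0.141), with Prg4 as the rise. S100b, a calcium-binding protein of Schwann cells that adipocytes also express, measured 11.06 to 11.26 in fed and 8.13 to 8.21 in P3 rats (-2.98 ± 0.102). It was 1 of 4 falls among 11 nerve genes, against 2 rises.

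Vessel genes were more often higher than lower. Of 19 endothelial markers, 10 rose and 2 fell (median 0.32), with 6 and 2 with centring on the receptors, and the list averaged 8.65 to 8.78 in fed and 8.92 to 9.09 in P3 rats. Pecam1 measured 10.20 to 10.29 and 11.28 to 11.36 (1.08 ± 0.0696), Sox17, of arteries, rose by 1.49 ± 0.172 and the angiopoietin receptor Tek by 0.71 ± 0.11. The phase 2 median was larger (0.44), and only 1 member was higher and 4 lower in P3 than in P2 rats. Lymphatic markers rose in 4 of 6 cases, including Reln (1.79 ± 0.226) and Flt4 (0.76 ± 0.108). In the smooth muscle and pericyte list 10 of 18 rose and 3 fell, and 9 and 6 with centring on the receptors. P3 rat 3 had the lowest P3 value for 15 of these 18 genes (83.3%, against 30.8% of all genes), and its list mean of 8.95 lay within the fed range of 8.74 to 9.10. The contractile myosin Myh11 measured 9.50 to 10.26 and 11.37 to 12.13 (1.93 ± 0.194), whereas the pericyte gene Cspg4 fell from 7.74 to 8.18 to 6.55 to 6.70, and Mcam fell by 2.00 ± 0.116. Fibroblast growth factors fell among the angiogenic genes (9 higher and 13 lower of 28, and 12 and 11 with median centring): Fgf1 by 2.38 ± 0.139, Fgf10 by 1.74 ± 0.145 and Fgf2 by 1.15 ± 0.0933.

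Immune genes did not change as a body. Macrophage markers were higher in 8 of 23 and lower in 5, but 5 and 10 without P3 rats 2 and 3, and 6 and 9 with centring on the receptors. P3 rat 1 had the lowest and P3 rat 2 the highest P3 value for 16 of 23 markers each, against 28.3% and 22.3% of all genes. Gpnmb, of lipid-laden macrophages, measured 7.78 to 8.50 and 10.16 to 10.54 (2.10 ± 0.152). Mertk, which clears dying cells, rose by 1.46 ± 0.143, Cd163 by 1.18 ± 0.12 and Cd68 by 0.86 ± 0.183, while Aif1 fell by 1.24 ± 0.158. For Cd68, P3 rat 1 (9.346) overlapped the fed rats, of which the highest was 9.352. Of 13 neutrophil genes, 5 were higher and 2 lower, 7 and 2 with median centring, and 2 and 3 with centring on the receptors. Mpo and Cxcr2, bright in the fed fat pad (9.56 to 9.96 and 9.08 to 9.54), fell by 4.23 ± 0.265 and 3.69 ± 0.227. The granule proteins S100a8, at background in fed rats, and S100a9 rose by 1.95 ± 0.419 and 0.58 ± 0.141. Of 24 T and NK cell genes, 5 fell and 1 rose (8 higher and 2 lower with median centring), and Cd8a changed by -0.65 ± 0.108. MHC class II presentation, little changed in phase 2 (median 0.19), fell in 8 of 12 genes, with Cd74 at 11.19 to 11.61 in fed and 9.90 to 10.52 in P3 rats (-1.24 ± 0.142) and RT1-Da at -1.31 ± 0.134. Mast cell (1 higher and 2 lower of 12), B cell (1 and 2 of 7), skeletal muscle (1 and 2 of 16) and hepatocyte lists (1 and 3 of 18) were called near or below the share of all genes as deposited, although 8 skeletal muscle and 6 hepatocyte genes were higher with median centring. The 3 falls and the rise among hepatocyte genes were led by transferrin (Tf, -0.94 ± 0.119), haemopexin (Hpx, 2.07 ± 0.475) and albumin (Alb), which measured 7.71 to 8.86 in fed and 5.20 to 8.34 in P3 rats (-1.59 ± 0.598, limma adjusted p = 0.0423, and 0.137 without P3 rat 3). Of 19 epididymis and testis genes, 6 rose (2 under all 6 scalings), and the list averaged 4.08 to 4.18 in fed and 4.22 to 4.49 in P3 rats, below the background level. Erythroid and platelet genes fell in 4 of 10 cases, with Alas2, of red cell haem synthesis, at 7.93 to 8.49 and 5.46 to 7.46.

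Acute phase and STAT3 genes rose in 15 of 27 cases and fell in 4. Orm1, an acid glycoprotein induced by glucocorticoids, measured 3.59 to 3.71 in fed rats, at background, and 5.16 to 6.51 in P3 rats (2.25 ± 0.201), haptoglobin (Hp) rose by 1.79 ± 0.133 and the signal subunit Il6st from 10.80 to 11.02 in fed rats to 11.84 to 12.13 in P3 rats. In the NF-kappa-B list (8 higher and 10 lower of 32, and 16 and 6 with median centring) the inhibitor Nfkbia rose by 1.94 ± 0.233 and the adhesion gene Vcam1 fell by 1.30 ± 0.185. Detoxification genes were more often higher, 18 of 44 against 8. Fmo2 measured 8.44 to 9.31 and 12.12 to 12.43 (3.42 ± 0.16), and Cyp27a1, which makes 27-hydroxycholesterol, rose by 2.53 ± 0.154. Of 42 antioxidant genes, 17 fell and 10 rose. The extracellular superoxide dismutase Sod3 measured 10.61 to 10.77 in fed rats, had a mean of 10.76 in P2 rats and measured 7.96 to 8.45 in P3 rats (-2.52 ± 0.102). Clock genes rose in 12 of 17 cases, including Tef (1.30 ± 0.0856) and Nr1d2 (0.97 ± 0.113). The labels used here give no hour of sampling, and its part in the clock genes was not tested.

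**Figure D3:**
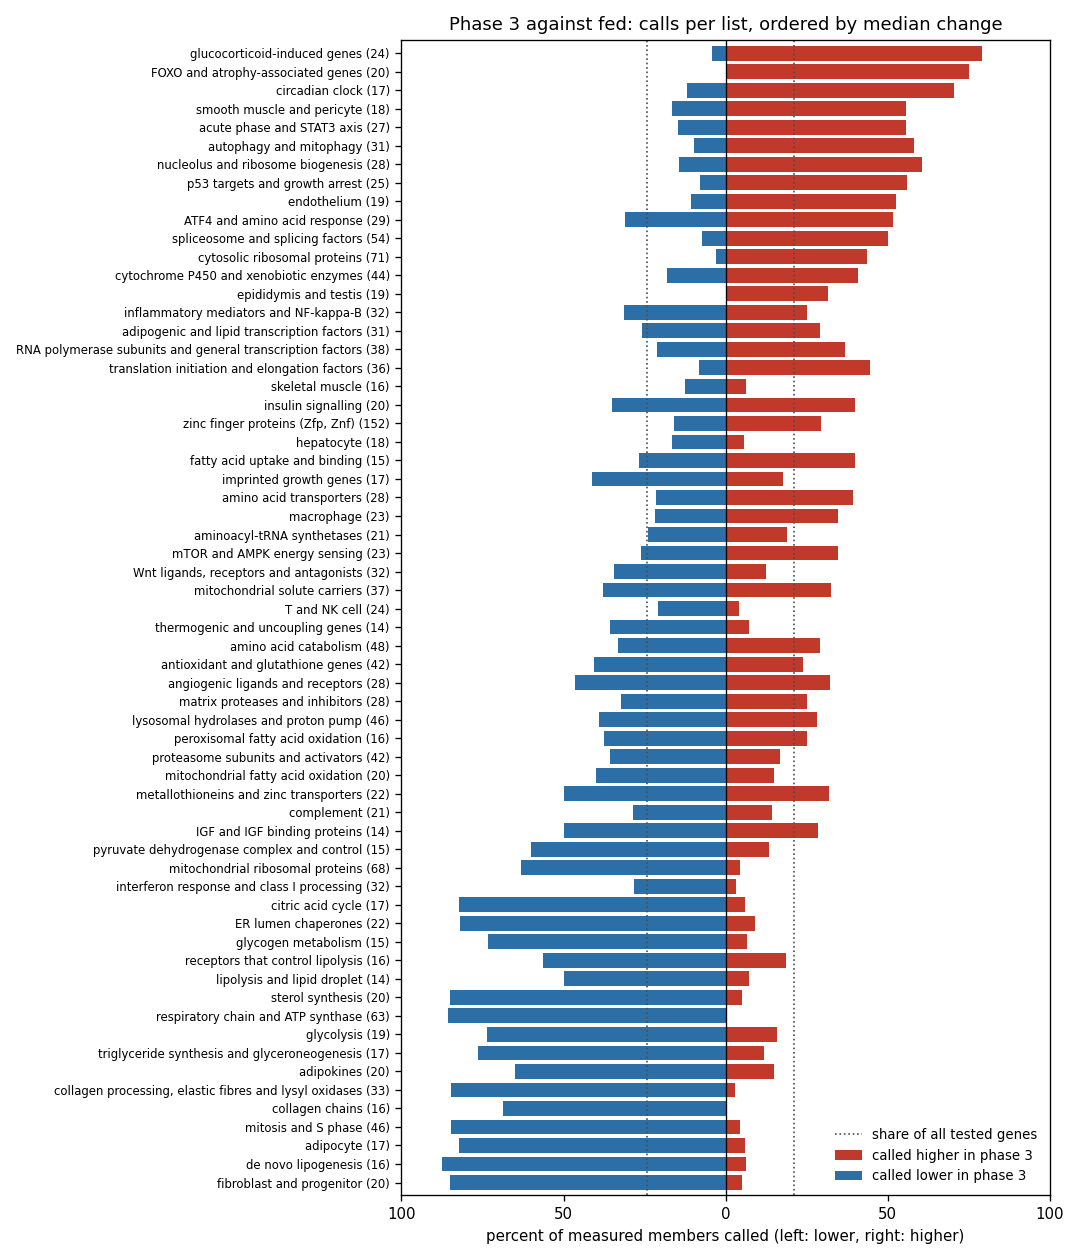
Percent of the measured members of each list that were called higher (right) or lower (left) in P3 against fed rats, for the 62 lists with at least 14 measured genes, ordered by median change, with the number measured in parentheses. Dotted lines mark the shares over all genes, 21.1% higher and 24.3% lower. Fibroblast, lipogenesis and adipocyte lists stand at the bottom and glucocorticoid-induced and FOXO lists at the top.

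The 4 P3 rats were not alike in interferon genes. Among genes above the median level, the 6 with the largest SD over the P3 rats were Mx2, Irf4, Slfn4, Rtp4, Irf7 and Oas1a, and 5 of them belong to the antiviral response. Mx2, an antiviral GTPase, measured 8.22, 9.37, 9.39 and 8.42 in fed rats and 5.38, 10.71, 5.94 and 6.19 in P3 rats. Slfn4 measured 7.15 to 8.16 in fed and 6.43, 10.09, 5.95 and 6.26 in P3 rats, and Irf7, the regulator of the response, 7.73 to 8.31 and 6.18, 9.42, 6.06 and 6.38. In each of these, rat 2 lay above every fed rat and the other 3 P3 rats below every fed rat, so that the group difference did not pass the test (Mx2 -1.79 ± 0.865, adjusted p = 0.107, and Irf7 -0.96 ± 0.563, adjusted p = 0.184). Rtp4 and Oas1a changed by -1.42 ± 0.599 and -1.03 ± 0.556 and did not pass either. P3 rat 2 had the highest P3 value for 29 of the 32 interferon genes (90.6%), against 22.3% of all genes. Of these 32 genes, 9 fell and 1 rose with all 4 rats, 24 fell and 1 rose without P3 rat 2, and 18 fell and 0 rose without P3 rats 2 and 3. Ifit3, the 1 rise (1.35 ± 0.387, named after its value was seen), lost its call without them (adjusted p = 0.0686, and 0.00109 to 0.0686 over all alternatives). The immunoproteasome gene Psmb9 fell by 1.11 ± 0.19 with all rats included. High values in P3 rat 2 were not particular to interferon genes. It was also the highest P3 rat for 17 of 21 complement genes and 9 of 12 MHC class II genes. The same held for 16 of 23 macrophage markers and 14 of 24 T and NK cell genes. The shares were smaller for mast cell (5 of 12), neutrophil (4 of 13) and B cell genes (2 of 7).

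The bases before Irf7 and Oas1a are shown because both genes followed P3 rat 2 and their family is known for the interferon-stimulated response element (ISRE, here TTTC, any 2 bases and TTTC). Irf7 lies at chr1:205800024-205800273 on the minus strand and Oas1a at chr12:41330216-41330465 on the plus strand (RefSeq, GRCr8). Capitals mark matches on either strand, and the 2 matches of Oas1a overlap.
Irf7: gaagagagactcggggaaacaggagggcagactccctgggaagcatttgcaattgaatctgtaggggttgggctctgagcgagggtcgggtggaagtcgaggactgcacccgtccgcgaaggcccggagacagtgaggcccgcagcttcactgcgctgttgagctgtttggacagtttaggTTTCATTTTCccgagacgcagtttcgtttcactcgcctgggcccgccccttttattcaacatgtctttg
Oas1a: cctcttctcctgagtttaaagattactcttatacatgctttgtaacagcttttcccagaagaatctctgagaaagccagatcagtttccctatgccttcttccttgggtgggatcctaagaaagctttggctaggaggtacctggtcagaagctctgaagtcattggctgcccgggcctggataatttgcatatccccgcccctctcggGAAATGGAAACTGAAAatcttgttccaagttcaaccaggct
The element was found in 16 of 25 interferon list members with a sequence (64.0%) and in 3.10% of all genes.

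Irf4, an interferon regulatory factor of adipocytes and lymphocytes that is known to rise on fasting, showed the opposite pattern. It measured 6.14, 6.25, 5.97 and 6.33 in fed rats and 10.99, 6.10, 10.67 and 10.37 in P3 rats. Rat 2 thus lay among the fed rats and the other 3 more than 4 log2 units above them. The group difference of 3.36 ± 0.808 (adjusted p = 0.00344) therefore describes 3 of the 4 rats. For Trim63, Pdk4 and Fkbp5, P3 rat 2 lay within the other P3 rats or within 0.20 of them (11.32, 12.71 and 11.18).

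**Figure D4:**
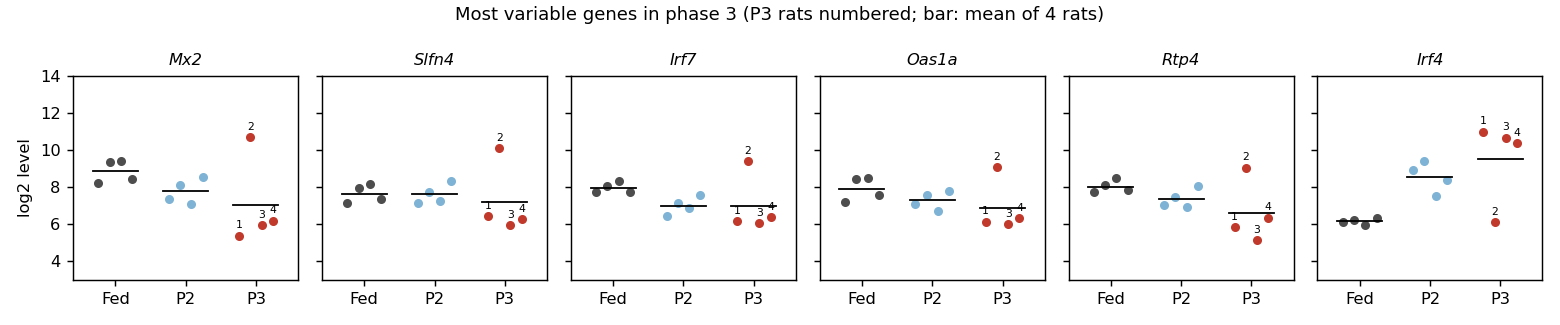
The log2 level of 6 genes in each rat, with P3 rats numbered and a bar for the mean of each group of 4. P3 rat 2 is the highest P3 rat for Mx2, Slfn4, Irf7, Oas1a and Rtp4, above all fed rats, and the lowest for Irf4, at 6.10 among the fed values.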

How the data were processed

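The authors deposited log2 expression values for 12 Affymetrix Rat Gene 1.0 ST arrays, 1 per rat. The submitters' processing notes name RMA, which subtracts background, normalises quantiles over arrays and summarises probes, with GCOS and Expression Console 1.1. Such values carry no absolute amount of RNA, so a change common to all genes cannot be measured, and depth is not defined for arrays; the number of rats limits precision. Gene names came from the platform annotation, updated through RefSeq (14481 of 14506 genes matched), and the brightest probe set by mean over all arrays stood for a gene. The deposited log2 values of all 12 arrays were fitted in limma 3.58.1 (R 4.3.3) with 1 mean per group, and p-values were adjusted by Benjamini-Hochberg over all 14506 genes. The procedure was tested on simulated data. Array measures were compared with exact permutation tests (scipy 1.17.1). Per the labels the rats were separate animals divided at random, and no batch is given.

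Genes were named by rule: the 8 largest rises and falls without overlap, up to 4 called members of smallest adjusted p per list, the 6 largest further rises and falls after phase 2, the 6 genes most variable over P3 rats, and 15 preset genes, of which Mki67 was not among the genes tested. Members, lists and alternatives were chosen with earlier results of these data known. Replicate numbers did not pair rats (correlations of same-numbered deviations between -0.15 and 0.19). Upstream bases came from RefSeq, GRCr8.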

Additional observations from a re-analysis of the deposited data

Results flagged for a closer look

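In 394 groups of 4 rats checked over 197 named genes, 25 (6.35%) held 1 rat far from the other 3, where chance gives about 1 in 20. The named genes include 6 chosen for their spread over the P3 rats, so this share is not comparable with chance. P3 rat 2 was that rat in 8 groups, 5 of them in those 6 genes (Oas1a, Irf7, Slfn4, Irf4 and Mx2), and P3 rat 4 in 0. P3 rat 2 was high for Oas1a (9.09), Irf7 (9.42), Slfn4 (10.09), Mx2 (10.71), Ccnd1 (6.95) and Aif1 (7.07), and low for Irf4 (6.10) and Sf3b1 (11.42). P3 rat 1 was the least changed rat for Mt1 (11.93), Mt2A (11.55), Aoc3 (10.21), Dlat (8.96) and Dnajb9 (8.70). P3 rat 3 stood apart for Fkbp5 (10.92, low), H19 (6.41, high) and Col5a3 (7.19, high), and its array had the smallest SD over genes (2.13).

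Among fed rats, rat 4 stood apart for Mt1 (7.89), Slc7a8 (8.55), Aimp1 (8.98) and Rplp2 (12.21), rat 3 for Nampt (8.98) and Aldh1l2 (7.38), rat 2 for U2af1 (9.22) and Plin2 (10.70), and rat 1 for Ucp1 (4.02), which lies at background.

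Changes from fed ran in opposite directions in both fasting phases for Acvr1c, Pck1 and Rassf4, and the direct differences of P3 from P2 were -2.99, -2.49 and 3.20, all past the limma threshold after Benjamini-Hochberg adjustment. Of 13905 probe sets without a single gene, 3749 were called in P3 against fed rats (27.0%), 2186 of them higher and 1563 lower.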

How the results depend on the processing

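The scaling decided the balance of directions. Called genes that were higher numbered 3066 as deposited, 6115 with median centring and 1832 with centring on the receptor mean. Their share of all calls, 46.5% as deposited, was 69.6% with median centring, 57.6% with upper-quartile centring, 28.3% with receptor centring, 53.3% with quantile normalisation, 48.6% with cyclic loess and 43.7% without the dimmest 40% of genes. Against phase 2, genes called higher numbered 3115 with median and 1126 with receptor centring, and genes called lower 3290 with receptor centring. The difference of array medians turned to 0.012 over all probe sets, whose medians RMA holds close together in advance. Leaving out 1 rat at a time gave shares of 44.6% to 47.9%, 5901 to 6656 calls and median differences of -0.17 to -0.14. With the replicate number as a block 6526 genes were called, 3053 higher and 3473 lower. Without P3 rats 2 and 3, an alternative chosen after seeing the data, 5993 were called. Of 191 called named genes, 187 kept their call in all 23 alternatives, and Cd36, Suclg2, Ifit3 and Alb lost it in at least 1. Alb lost it in 12 of them, with changes of -1.66 to -1.08. The cause of these differences was not tested. Probe sets near background bound how far falls can be measured.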
